A study of Mus musculus with 24 samples.

Results

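The transcripts examined here are those of 10 genes that elongating spermatids use to pack their chromatin and to build the sperm tail: Prm1, Prm2, Tnp1, Tnp2, Odf1, Odf2, Akap4, Gapdhs, Smcp and Oaz3. They were listed by name, out of 55450 genes in a table of RNA-seq counts, for their known roles. No measured value is part of the rule, but the list was drawn up with earlier results of these data known. RNA was sequenced from testes, liver and cerebellum of mice that lack Thumpd1 (KO) and of wild-type (WT) controls, with 4 libraries per genotype and tissue and 24 in all. The comparison asks how the testis transcriptome, and these genes within it, differ when Thumpd1 is lost. Thumpd1 encodes an adaptor protein that guides the enzyme Nat10 to serine and leucine tRNAs, on which N4-acetylcytidine is then formed.

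The KO was made in C57BL/6N mice by genome editing with cuts aimed at exons 1 and 4 of Thumpd1, and the allele is carried by the whole animal from conception, so germ cells and the somatic cells around them lack the gene alike. Several lines were made, and which of them gave these animals is not given in the sources used here. Controls were littermates of the same age, and animals were between 6 and 12 weeks old. No treatment is named for either group. The labels do not say whether each replicate is a separate animal, although the study calls those of testes, liver and cerebellum biological replicates. Libraries are called here by the replicate numbers of the labels, which are 1 to 4 for WT and 5 to 8 for KO. Each value is an expected count, that is, the number of sequenced fragments assigned to a gene, and is given scaled to the total of its library, as count-per-million values (CPM). Total counts were 29913402 to 32220670 in WT testes and 27273231 to 36621604 in KO testes. Thumpd1 itself was at 24.3 to 26.3 CPM in WT testes and at 0.768 to 1.14 CPM in KO testes, which matched the labels, as did liver and cerebellum.

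In a spermatid that has finished meiosis, histones are first replaced by transition proteins and then by protamines, and the nucleus condenses until transcription stops. Messages for these proteins are therefore made in advance, held in ribonucleoprotein particles and translated days later. At the same time the tail is assembled around the axoneme from outer dense fibers, a fibrous sheath that carries glycolytic enzymes, and a sheath of mitochondria in the midpiece. Bulk testis RNA mixes these cells with earlier germ cells and with Sertoli, Leydig and other somatic cells, and in it fewer spermatids and less RNA per spermatid cannot be told apart.

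The coding sequence of Prm1 is shown because it illustrates what sets the chromatin genes apart as messages. On mm10 it lies at chr16:10796487-10796731 on the minus strand, is split over 2 exons and is printed from its start codon with the arginine codons in capitals.
Prm1: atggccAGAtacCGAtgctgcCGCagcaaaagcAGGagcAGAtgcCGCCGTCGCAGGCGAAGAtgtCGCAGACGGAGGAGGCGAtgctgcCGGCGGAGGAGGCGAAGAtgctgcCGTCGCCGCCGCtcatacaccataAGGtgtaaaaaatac
Arginine takes 28 of its 51 codons, or 54.9%. The share was 35.5% in Prm2, 20.0% in Tnp1 and 13.7% in Tnp2, against a median of 5.62% over 14945 coding genes expressed in testes. Codons for leucine and serine, the amino acids of the tRNAs that Thumpd1 serves, made up 7.84% of Prm1 and 8.41% of Prm2. They made up 18.2% of Tnp1 and 19.7% of Tnp2, and the median over the same genes was 17.9%. These sums join unlike shares. Leucine alone took 0% of Prm1, 1.87% of Prm2, 5.5% of Tnp1 and 0.855% of Tnp2, against a median of 9.8%. Serine alone took 7.84%, 6.54%, 12.7% and 18.8% of them, in the same order, against a median of 7.79%. Among the tail genes Smcp and Odf1 are rich in cysteine, which took 22.4% and 16.5% of their codons against a median of 1.92%.

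Promoters are shown for 4 members because transcription of such genes in spermatids is known to involve the activator Crem, which binds cAMP response elements, and because some start downstream of a TATA box. Each line gives the 100 bases before the start of transcription in RefSeq's annotation of GRCm38.p6, the assembly behind mm10, with TGANNTCA and TATAA in capitals where they occur. All 4 shown hold a match in these 100 bases, as does Akap4. Those of Prm2, Smcp and the first promoter of Odf2, which are not shown, hold none there.
Prm1: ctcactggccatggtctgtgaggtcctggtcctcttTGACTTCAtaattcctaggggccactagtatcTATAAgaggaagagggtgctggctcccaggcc
Tnp1: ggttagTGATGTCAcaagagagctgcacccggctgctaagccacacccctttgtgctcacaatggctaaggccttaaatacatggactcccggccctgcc
Tnp2: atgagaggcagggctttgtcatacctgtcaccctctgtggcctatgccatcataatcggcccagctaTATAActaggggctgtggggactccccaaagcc
Gapdhs: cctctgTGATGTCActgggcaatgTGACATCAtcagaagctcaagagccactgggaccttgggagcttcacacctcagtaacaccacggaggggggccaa
They lie, in the same order, at chr16:10796824-10796923, chr1:73015900-73015999, chr16:10788656-10788755 and chr7:30743682-30743781, all on the minus strand. The full palindrome TGACGTCA was searched on both strands from 250 bases before to 50 bases after the start, and was found in 0 of the 13 promoters listed for 8 members and in 1.79% of 32851 mouse promoters. Because a gene can have several promoters, members are counted here beside the share of all genes with the motif in at least 1 promoter, which was 2.03% for the palindrome. The relaxed form TGANNTCA, which includes the full palindrome, was found in 5 of the 8 (Prm1, Tnp1, Akap4, Gapdhs and Smcp) and in 15.9% of all genes, or in 7 of the 13 promoters and 14.1% of all promoters. TATAA, searched on the gene's own strand, was found in 2 of the 8, Prm1 and Tnp2, and in 20.0% of all genes, or in 2 of the 13 promoters and 17.5% of all promoters. These motifs were chosen after the member sequences had been seen, and a match is a description of the letters and no evidence of binding. The promoters of Odf1 and Oaz3 were not analysed here.

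Of the 10 genes, 9 were almost confined to testes in these libraries. In 16 liver and cerebellum libraries, Tnp1 and Tnp2 had 0 counts throughout, which allows a level of up to 0.0792 to 0.183 CPM depending on the library (3 counts of its total, for counting error only). Prm1, Prm2, Odf1, Akap4 and Smcp never exceeded 2 counts in a library, Gapdhs reached at most 5 and Oaz3 at most 8. Odf2 was the exception. Its product is also a component of centrioles, and it was at 204 ± 5.17 CPM (SD, n = 4) in WT cerebellum and at 9.48 ± 0.808 CPM in WT liver, against 2539 ± 101 CPM in WT testes. Because the genes were picked as spermatid genes, these differences between tissues are a description.

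**Figure D1:**
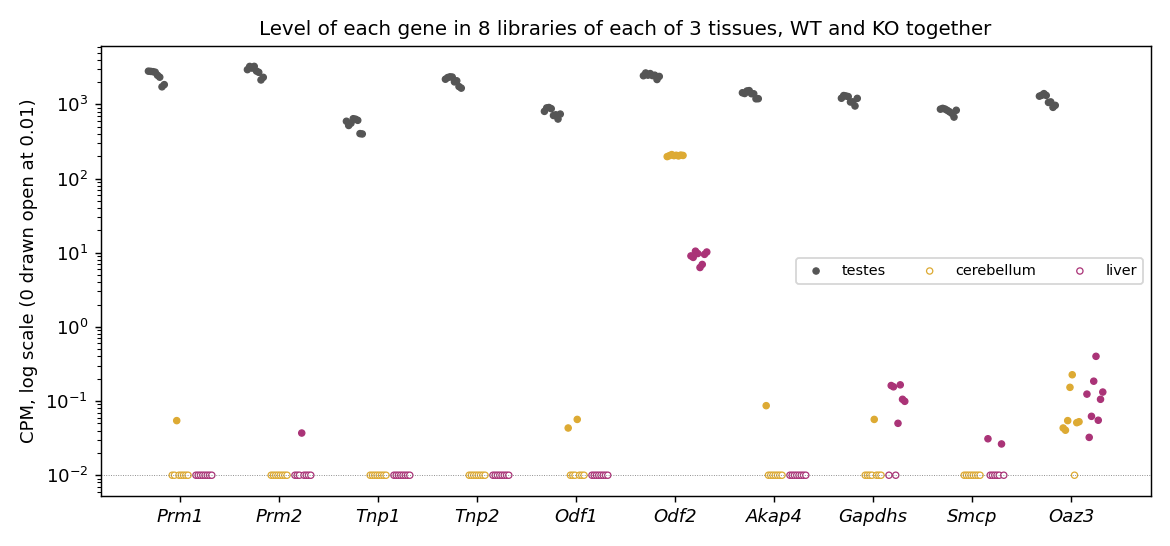
Level of each of the 10 genes in CPM, on a log axis, in the 8 libraries of testes, cerebellum and liver, WT and KO together. Each point is a library, and open points on the dotted line stand for 0 counts; Odf2 alone lies far from 0 in all 3 tissues.

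In WT testes the 10 genes together took 1.65% to 1.74% of all counts. Prm2 was the most abundant at 3130 ± 149 CPM, rank 7 of all genes, followed by Prm1 at 2765 ± 38.4 CPM, Odf2, and Tnp2 at 2291 ± 75.3 CPM. Akap4 (1470 ± 62.9 CPM), Oaz3 (1333 ± 44.7 CPM) and Gapdhs (1273 ± 46.1 CPM) formed a middle group in which Oaz3 and Gapdhs overlapped between libraries. Odf1 (870 ± 45.8 CPM) and Smcp (860 ± 21.4 CPM) did not differ beyond their spread, and Tnp1 was lowest at 577 ± 51.4 CPM, rank 155. Long transcripts collect more counts, so the order per kilobase of exon is another one: Prm1 came first with 4842 CPM per kb, then Tnp2 with 4136 and Prm2 with 3501, and Odf2 came last with 256. On that scale all 4 chromatin genes stood above all 6 tail genes. The length used was that of the exons of all annotated transcripts, merged. It was 9919 bp from 25 transcripts for Odf2 and 4326 bp from 8 for Oaz3, but 437 bp from 1 for Tnp1. Merging lowers the values of genes with many transcripts, so the last place of Odf2 and the split between chromatin and tail genes may depend on it.

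The testes libraries were not uniform, and 3 of them stood apart. KO libraries 7 and 8 had the lowest sums of the 10 genes (12520 and 13530 CPM, against 15390 and 15220 CPM in KO libraries 5 and 6). KO library 7 also had the highest summed level of 15 Sertoli markers, 2372 CPM against 1653 to 1811 CPM in the other KO libraries, and of 9 Leydig markers, 1705 CPM against 1057 to 1091 CPM. WT library 2 held epididymal transcripts: the secretory protein gene Crisp1 was at 95.2 CPM there and at 0.0623 to 0.401 CPM in the other WT libraries, with 13.3 to 23.7 CPM in the KO libraries. Counts of members called are therefore also given without these libraries.

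All 10 genes had lower mean levels in KO testes, at 75.4% to 93.1% of the WT mean. Oaz3, Prm1, Prm2, Odf1 and Tnp2 fell by the test used in the study, limma-voom after quantile normalization. Its p-values were adjusted here by the Benjamini-Hochberg method over 19329 genes. That is 5 of 10 members called lower, where 10.7% of all genes tested were called lower and 20.5% were called in either direction. All 4 KO libraries lay below all 4 WT libraries, on the CPM scale, for 7 of the 10 genes, which was so for 9.8% of all genes. The median log2 change of the 10 genes was -0.15, beside 0.00 for all genes tested and -0.02 for the 100 most abundant other genes.

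The size of the change depended on the scaling. Quantile normalization makes the distributions of all libraries equal, which can shrink differences of the most abundant genes. Its part in the values here was not tested. With TMM factors, which rescale each library by 1 number, the median of the 10 genes was -0.33, beside 0.01 for all genes and -0.15 for the 100 most abundant others. With these factors, 8 of the 10 were called lower by limma-voom, where 11.7% of all genes were. edgeR's quasi-likelihood test and DESeq2 also called 8, against backgrounds of 11.4% and 13.1%, and limma-voom on library totals called 7 against 7.95%. The last scaling moved the balance of all calls, from 2075 lower and 1882 higher with quantile normalization to 1536 lower and 3184 higher. Tnp1 and Odf2 were called under none of these settings.

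**Figure D2:**
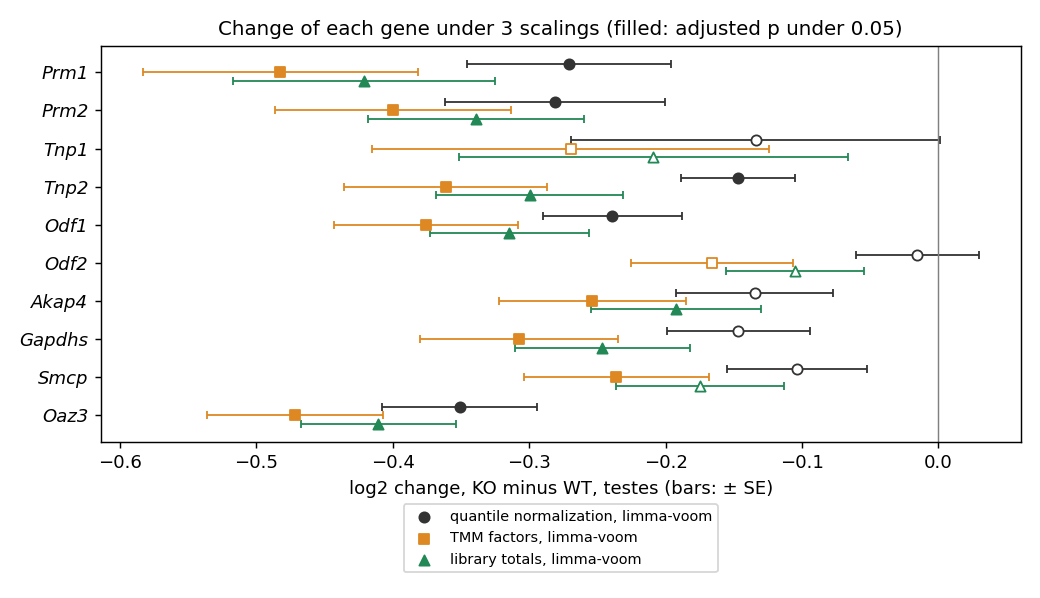
log2 change (KO minus WT) of each gene in testes, with bars of ± SE, under quantile normalization, TMM factors and library totals, all with limma-voom. Filled symbols have an adjusted p under 0.05; the 10 quantile values run from -0.35 for Oaz3 to -0.02 for Odf2 and lie to the right of the TMM values throughout.

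The protamines replace almost all histones of the sperm nucleus. Prm1 was at 2803, 2783, 2758 and 2714 CPM in WT libraries 1 to 4 and at 2468, 2325, 1724 and 1844 CPM in KO libraries 5 to 8. The WT libraries were nearly equal, all KO libraries lay below them, and libraries 7 and 8 lay furthest below. The log2 change was -0.27 ± 0.075 (SE; limma adjusted p = 0.0273), and -0.48 ± 0.101 with TMM factors (limma adjusted p = 0.00823).

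Prm2, which encodes the protamine that is made as a precursor and then cleaved, was at 2938, 3245, 3085 and 3251 CPM in WT and at 2810, 2705, 2134 and 2313 CPM in KO. The groups again did not overlap, with 128 CPM between the lowest WT and the highest KO library. Its log2 change was -0.28 ± 0.080 (limma adjusted p = 0.0313), and -0.40 with TMM factors (limma adjusted p = 0.0094).

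The transition proteins bind chromatin between the removal of histones and the arrival of protamines. Tnp2 was at 2183, 2298, 2349 and 2335 CPM in WT and at 2009, 2077, 1738 and 1655 CPM in KO, without overlap. It fell by 0.15 on the log2 scale (SE 0.042, limma adjusted p = 0.0303), and by 0.36 with TMM factors (limma adjusted p = 0.00781). Tnp1 split the KO group: it was at 631 and 609 CPM in KO libraries 5 and 6, inside the WT range of 519 to 640 CPM, and at 403 and 399 CPM in libraries 7 and 8, below it. Its log2 change of -0.13 ± 0.135 did not pass (limma adjusted p = 0.494), nor did that with TMM factors (-0.27, limma adjusted p = 0.19).

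Exons of Tnp1 share 40 bp with 1700027A15Rik, a gene on the other strand, which averaged 212 ± 8.17 CPM without and 156 ± 23.5 CPM with the KO (log2 change -0.44, limma adjusted p = 0.00872). The kit marked strand, but the strand setting used in counting is not given in the sources used here, so reads of the pair in the shared stretch may not have been kept apart.

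**Figure D3:**
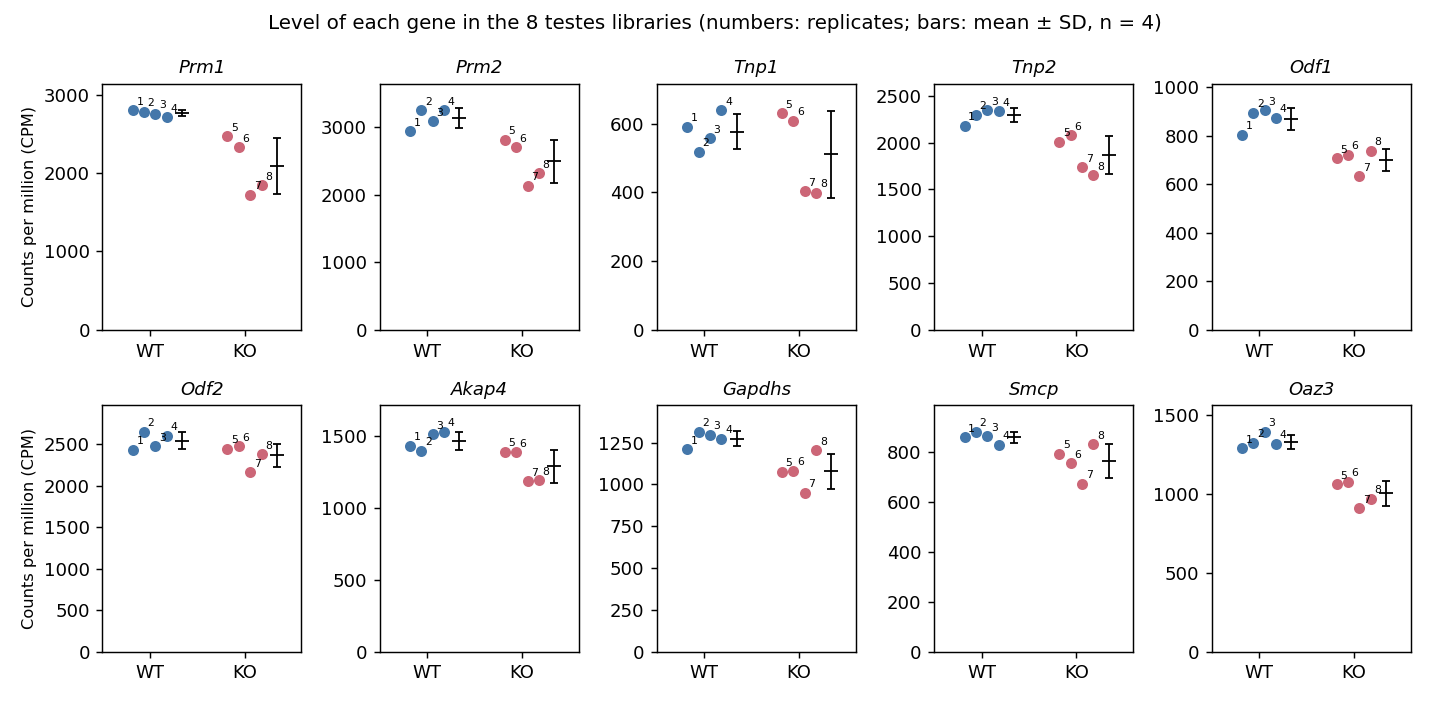
CPM of each gene in the 8 testes libraries, on axes that start at 0, with replicate numbers beside the points and mean ± SD (n = 4) as bars. All KO points lie below all WT points for Prm1, Prm2, Tnp2, Odf1, Akap4, Gapdhs and Oaz3, and KO libraries 7 and 8 lie below 5 and 6 for 7 of the 10 genes, the 4 chromatin genes, Odf2, Akap4 and Oaz3.

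Prm1, Prm2 and Tnp2 lie side by side on the minus strand of chromosome 16, within 17904 bp of mm10, from Tnp2 (10787936 to 10788660) through Prm2 (10791380 to 10796134) to Prm1 (10796326 to 10805839). Prm3, a related gene between Tnp2 and Prm2, was far less abundant, at 43.9 ± 2.74 CPM in WT testes and at 38.0 ± 6.72 CPM in KO testes (log2 change -0.31, limma adjusted p = 0.0827). The flanking genes Clec16a, Socs1 and Rmi2 did not pass either. So 0 of 4 neighbours were called by limma, where 20.5% of all genes were called in either direction, and 0 by edgeR, where 23% were. With 4 genes, a count of 0 cannot be told from these shares. By limma 1 of the 4 (Prm3) had an unadjusted p under 0.05.

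Odf1 encodes a cysteine-rich protein of the outer dense fibers, the stiff rods along the tail. It was at 805, 896, 907 and 875 CPM in WT and at 708, 723, 634 and 739 CPM in KO, and here library 8 was the highest of the KO group. It fell by 0.24 on the log2 scale (SE 0.051, limma adjusted p = 0.0103), and by 0.38 with TMM factors (limma adjusted p = 0.00458).

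Odf2, the other dense fiber gene, changed least. It was at 2432, 2647, 2476 and 2599 CPM in WT testes and at 2443, 2472, 2163 and 2378 CPM in KO, with overlapping groups and a log2 change of -0.02 ± 0.045 (limma adjusted p = 0.827). With TMM factors the change was -0.17 (limma adjusted p = 0.0627).

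Odf2 was also the only member that could be tested elsewhere. It was at 205 ± 2.32 CPM in KO cerebellum (log2 change 0.03, limma adjusted p = 0.61, where 6.44% of genes were called) and at 8.24 ± 1.90 CPM in KO liver (-0.18, limma adjusted p = 0.51, where 5.91% were called). The liver value ran from -0.28 without KO liver library 8 to -0.09 without KO liver library 5, was -0.02 with sample quality weights, and passed in none of these fits. The KO effect in testes minus that in cerebellum was -0.21 ± 0.094 (limma with TMM factors over all 24 libraries, adjusted p = 0.145, where 13.8% of genes were called). Against liver it was -0.05 ± 0.147 (limma adjusted p = 0.857, where 16.2% were called), so no difference of the effect between tissues was detected.

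Akap4 encodes the main scaffold of the fibrous sheath, and Gapdhs the glycolytic enzyme bound to it. Akap4 was at 1433, 1400, 1514 and 1531 CPM in WT and at 1392, 1388, 1188 and 1192 CPM in KO. Gapdhs was at 1209, 1314, 1297 and 1273 CPM in WT and at 1075, 1081, 951 and 1204 CPM in KO. In neither gene did the groups overlap, but the gap between the nearest libraries was small: 8.60 CPM for Akap4 and 5.00 CPM for Gapdhs. With quantile normalization neither passed (log2 change -0.13 and -0.15, limma adjusted p = 0.114 and 0.0668). With TMM factors both did (-0.25 and -0.31, limma adjusted p = 0.0225 and 0.0133), as with edgeR and DESeq2. The call of Akap4 with TMM factors was lost without WT library 3 or 4 or KO library 7 or 8 (limma adjusted p = 0.0768, 0.0791, 0.0558 and 0.0506), and its change with quantile normalization was -0.08 without KO library 8. Gapdhs passed in all 8 such fits with TMM factors, and its change with quantile normalization was -0.10 without KO library 7.

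Smcp encodes a cysteine-rich protein of the mitochondrial capsule in the midpiece. It was at 861, 883, 864 and 831 CPM in WT and at 795, 757, 674 and 832 CPM in KO, so that only KO library 8 reached the WT range. Its log2 change was -0.10 (limma adjusted p = 0.163), and -0.06 without KO library 7. With TMM factors it was -0.24 (limma adjusted p = 0.0289), a call that was lost without any 1 of the WT libraries (limma adjusted p = 0.0514 to 0.0842).

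Oaz3 encodes antizyme 3, a testis form of the inhibitors of ornithine decarboxylase, whose reading requires a ribosomal frameshift and whose product is also found in the tail. Of the 10 genes it changed most on the quantile scale. It was at 1289, 1327, 1395 and 1320 CPM in WT and at 1061, 1079, 911 and 970 CPM in KO, with 210 CPM between the groups. It fell by 0.35 on the log2 scale (SE 0.057, limma adjusted p = 0.00379), and by 0.47 with TMM factors (limma adjusted p = 0.00191). Its exons share 2255 bp with Tdrkh and 157 bp with Mrpl9 on the other strand, so its counts are uncertain to that extent. Tdrkh was at 40.9 ± 0.341 CPM in WT testes and at 45.4 ± 2.02 CPM in KO testes, and Mrpl9 at 16.2 and 17.9 CPM, far below Oaz3, and neither passed the test.

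Leaving out 1 library at a time tested how far these calls rest on single libraries. Oaz3 and Odf1 passed in all 8 reduced fits with quantile normalization (limma adjusted p up to 0.0191 and 0.0451). Without WT library 1, KO library 5 or KO library 6, the number of members called stayed at 5, where 8.44%, 12.9% and 11.3% of all genes were called lower. Without WT library 2, which held epididymal transcripts, 3 members passed (Prm1, Odf1 and Oaz3), where 7.14% of all genes were called lower. That fit does not remove such transcripts from the comparison. Crisp1 remained at 13.3 to 23.7 CPM in the KO libraries and at 0.0623 to 0.401 CPM in the WT libraries left. Without WT library 3 or WT library 4 only Odf1 and Oaz3 passed, with backgrounds of 5.02% and 5.09%. Prm1 was then at -0.28 and -0.24 (limma adjusted p = 0.0721 and 0.0842), and Prm2 at -0.29 and -0.26 (limma adjusted p = 0.0807 and 0.106). Tnp2 did not pass without WT library 2, 3 or 4 (limma adjusted p = 0.0782 to 0.0938), though its log2 change stayed between -0.15 and -0.14.

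Without KO library 7, Tnp2, Odf1 and Oaz3 passed (background 6.9%), and without KO library 8 the same genes and Gapdhs (limma adjusted p = 0.0389, background 9.08%). Prm1 passed in neither (log2 change -0.19 and -0.23, limma adjusted p = 0.0825 and 0.0561), nor did Prm2 (-0.22 in both, limma adjusted p = 0.0774 and 0.065). The log2 change of Tnp1 ran from -0.24 without KO library 5 to -0.03 without KO library 8, and did not pass in any of the 8 fits with quantile normalization (limma adjusted p from 0.152 to 0.879). With TMM factors, a set of fits added after the data had been seen, between 6 and 9 members passed while 5.8% to 13.5% of all genes were called lower. In these, 7 members passed without WT library 2 (background 8.15%) and 7 without KO library 7 (background 7.87%), and Tnp1 passed without KO library 5 (-0.38, limma adjusted p = 0.0457).

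Ratios of 2 genes within a library do not depend on scaling and were compared with exact two-sided permutation tests over the 8 libraries, with p-values adjusted over 6 ratios. The ratio of Odf1 to Odf2 was 0.331, 0.338, 0.366 and 0.337 in WT and 0.290, 0.293, 0.293 and 0.311 in KO, lower in all 4 KO libraries. Its log2 difference was -0.21 (exact p = 0.0286, the smallest that 4 against 4 allow, adjusted p = 0.171). With adjustment over 6 ratios, a p at this limit can pass only if other ratios are also near it. Odf1 to Odf2 could therefore not pass by itself, and its adjusted p does not decide whether the ratio changed. Prm1 to Tnp1 was 4.81 in WT and 4.14 in KO (log2 difference -0.21, exact p = 0.0857, adjusted p = 0.257), with overlapping libraries.

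For the 2 protamines, the ratio of Prm1 to Prm2 was 0.884 in WT and 0.835 in KO (log2 difference -0.08, exact p = 0.2, adjusted p = 0.4). The ratio of Tnp1 to Tnp2 differed by 0.09 on the log2 scale (exact p = 0.486), that of Akap4 to its sheath partner Akap3 by 0.03 (exact p = 0.429), and that of Gapdhs to the sperm lactate dehydrogenase Ldhc by -0.05 (exact p = 0.6). With single libraries left out, the log2 difference ran from -0.11 (without WT library 4) to -0.05 (without WT library 1) for Prm1 to Prm2, and from 0.02 (without KO library 5) to 0.16 (without KO library 7) for Tnp1 to Tnp2. It ran from 0.01 (without WT library 2) to 0.06 (without KO library 8) for Akap4 to Akap3, and from -0.15 (without KO library 8) to -0.01 (without KO library 5) for Gapdhs to Ldhc. None of the 6 passed after adjustment, and with 4 libraries a group that does not show the ratios to be equal.

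**Figure D4:**
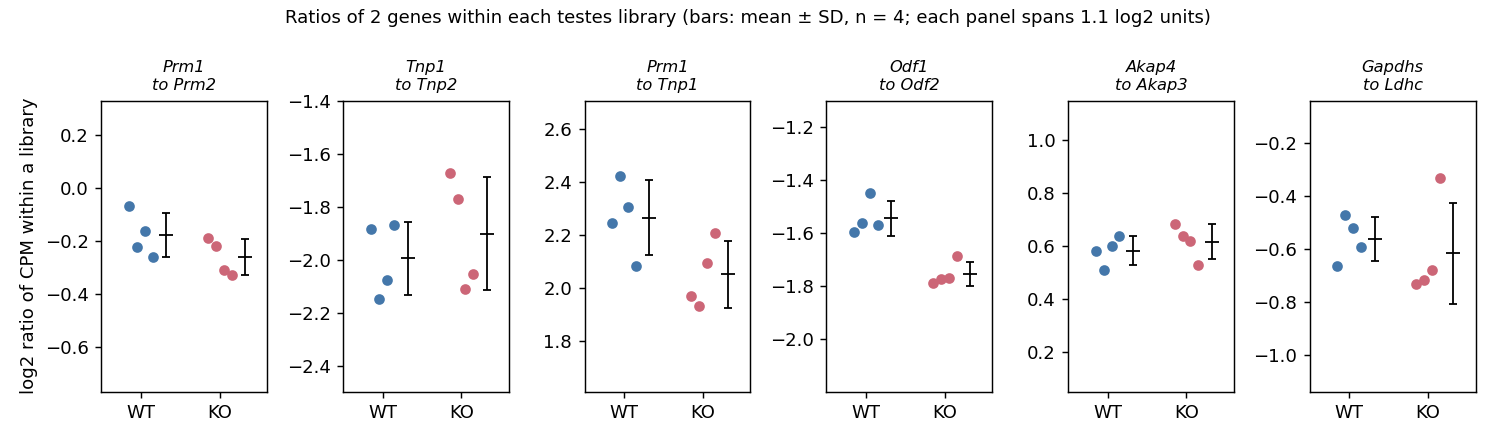
log2 ratio of 2 genes' CPM within each of the 8 testes libraries, with mean ± SD (n = 4) as bars; every panel spans the same height, so distances can be compared. Odf1 to Odf2 is the one ratio with no overlap between WT and KO.

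Other genes of the same structures were examined as lists, each described by counts of genes called by limma with quantile normalization. These counts stand beside 10.7% of all genes called lower, and 11.7% with TMM factors. Of 10 other fibrous sheath genes 5 fell (Akap3, Ropn1, Cabyr, Fscb and Rhpn1) and 0 rose, with a median log2 change of -0.17 (6 fell with TMM factors, median -0.27). Akap3 went from 981 ± 17.2 to 840 ± 51.5 CPM (-0.16, limma adjusted p = 0.0239). Gstm5 (1385 to 1170 CPM, limma adjusted p = 0.208) and Fsip2 (1376 to 1289 CPM, limma adjusted p = 0.80) did not pass, and with TMM factors Gstm5 did (limma adjusted p = 0.0313).

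Of 8 tested dense fiber genes 4 fell (Odf3, Odf3l1, Spag4 and Tssk4), where 10.7% of all genes did, with a median of -0.20 (5 fell with TMM factors, median -0.24). Spag4, whose product binds Odf1, went from 219 ± 3.27 to 184 ± 12.9 CPM (limma adjusted p = 0.0139). Among these lists of tail genes the mitochondrial sheath had the largest share called, 8 of 12, with a median of -0.22 (10 fell with TMM factors, median -0.33, where 11.7% of all genes fell). It held Gpx4, the selenoprotein of the mitochondrial capsule, which went from 772 ± 25.7 to 633 ± 82.0 CPM (-0.23, limma adjusted p = 0.0434), and Spata18, which went from 572 ± 29.1 to 470 ± 29.5 CPM (-0.21, limma adjusted p = 0.013). Gk2 did not pass (436 to 361 CPM, limma adjusted p = 0.0543), and with TMM factors it did (limma adjusted p = 0.0157).

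Of 15 genes of glycolysis in sperm 6 fell (Pgam2, Eno4, Aldoart1, Aldoart2, Gpi1 and Tpi1), where 10.7% of all genes fell, with a median of -0.05. With TMM factors 8 fell, where 11.7% of all genes did, with a median of -0.21. The 3 most abundant of them, Ldhc, Hk1 and Slc2a3, were at 1881, 1636 and 1196 CPM in WT and at 1651, 1481 and 1150 CPM in KO, and did not pass (limma adjusted p = 0.504, 0.609 and 0.56). With TMM factors Ldhc (-0.25, limma adjusted p = 0.018) and Hk1 (-0.21, limma adjusted p = 0.0373) passed and Slc2a3 did not (-0.12, limma adjusted p = 0.188). Hk1 did not pass with edgeR (adjusted p = 0.0552). Of 9 polyamine genes 1 was called with quantile normalization, a share below the 20.5% of all genes called in either direction: Azin2, the antizyme inhibitor of testis and brain, fell (215 ± 14.8 to 171 ± 12.8 CPM, -0.29, limma adjusted p = 0.0109). Odc1, the enzyme that antizymes restrain, went from 287 ± 4.61 to 266 ± 13.1 CPM (limma adjusted p = 0.219), and passed with TMM factors (-0.17, limma adjusted p = 0.0375). With TMM factors 2 of the 9 fell and 1 rose, and the list's median was -0.08, against -0.06 with quantile normalization.

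Other lists hold genes that act before or beside the protamines. Their counts stand beside 10.7% of all genes called lower and 20.5% called in either direction, and beside 11.7% and 22.9% with TMM factors and 11.4% lower with edgeR. Of 14 genes of histone exchange 3 fell, the linker histones Hils1 and H1fnt and the kinase Tssk6, and the median was -0.07. With TMM factors 5 fell, with a median of -0.19, and edgeR called 6. Phf7, Psme4 and Chd5, the most abundant of them, did not pass (limma adjusted p = 0.725, 0.954 and 0.922), and of these Phf7 passed with TMM factors (-0.22, limma adjusted p = 0.0324) and with edgeR (adjusted p = 0.0495). Of 8 transcription factors of spermatids 3 were called (Fhl5, Taf7l and Rfx3), of which 1 rose and 2 fell, with a median of -0.13. With TMM factors 1 rose and 4 fell, with a median of -0.18. Of 13 genes that store and translate spermatid messages 0 were called by limma with quantile normalization (1 at an unadjusted p under 0.05), while edgeR called 4 and limma with TMM factors called 5, all lower. Ybx2, the protein that packs stored messages, was at 1728 ± 50.4 CPM in WT testes and at 1545 ± 25.2 CPM in KO testes (-0.05, limma adjusted p = 0.307, and -0.22 with TMM factors, limma adjusted p = 0.00804).

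Markers of other cells of the testis were counted in the same way, beside 10.7% of all genes called lower and 9.74% called higher, and 11.7% and 11.2% with TMM factors. Of 13 round spermatid markers 5 fell and 13 lay below 0, with a median log2 change of -0.23 (9 fell with TMM factors, median -0.27), and their summed level was 2614 to 2679 CPM in WT and 2063 to 2445 CPM in KO. The 10 genes divided by this sum gave 6.33 to 6.62 in WT and 6.07 to 6.29 in KO. Of 12 spermatocyte markers 1 fell and 0 rose, against 1 and 1 with TMM factors (median 0.07, and 0.02 with TMM factors, summed level 1465 to 1655 CPM in WT and 1483 to 1754 CPM in KO). Of 14 tested spermatogonia markers 2 rose, close to that background, and 3 with TMM factors (median 0.23, summed level 198 to 221 CPM in WT and 216 to 306 CPM in KO).

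Sertoli markers showed the opposite direction to the members: 12 of 15 rose and 0 fell, where 9.74% of all genes rose, with a median of 0.47 and a summed level of 1286 to 1513 CPM in WT and 1653 to 2372 CPM in KO. Clu, for example, went from 807 ± 63.4 to 1068 ± 204 CPM (limma adjusted p = 0.0236). Of 9 Leydig markers 2 rose and 1 fell (1157 to 1258 CPM in WT, 1057 to 1705 CPM in KO). None of 5 peritubular markers (102 to 124 CPM and 116 to 160 CPM) or of 5 macrophage markers (20.9 to 22.4 CPM and 21.7 to 30.8 CPM) was called by limma with quantile normalization (1 and 0 at an unadjusted p under 0.05, 1 and 0 called by edgeR). No marker of these lists except epididymal ones was at 0 in every testes library of a group. The part of cell composition in the lower level of the 10 genes was not tested.

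**Figure D5:**
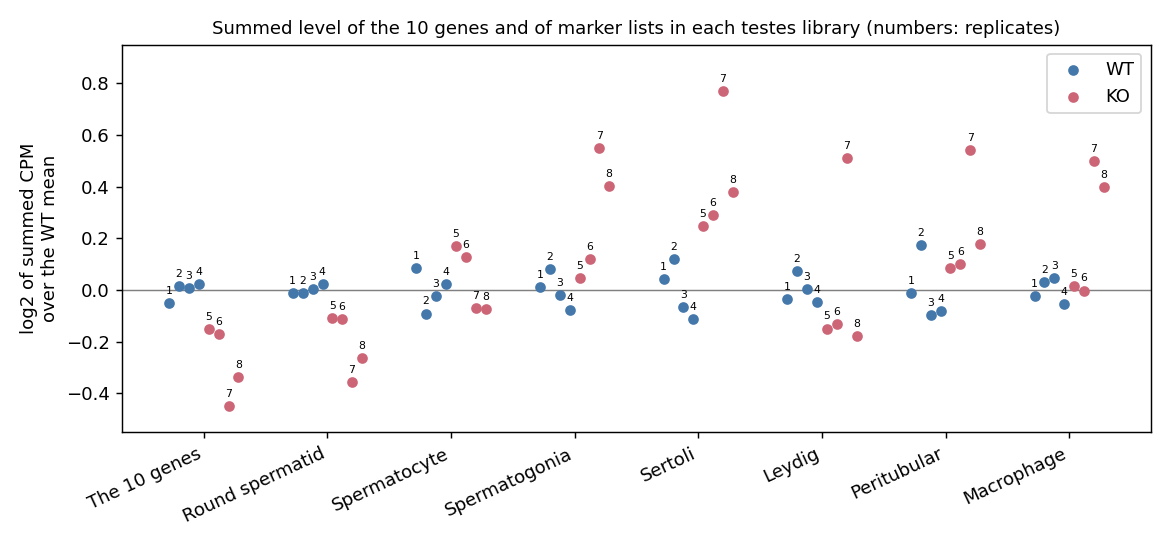
Summed CPM of the 10 genes and of each marker list in the 8 testes libraries, as log2 of the value over the WT mean, with replicate numbers above the points. The 10 genes and the round spermatid markers are lower, and the Sertoli markers higher, in all 4 KO libraries than in any WT library; KO library 7 is at the extreme of each.

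Of 8 epididymal markers 3 were abundant enough to test. Crisp1 and Adam7 were called higher by limma (log2 change 3.86 and 4.45, adjusted p = 0.0481 and 0.0357) but not by edgeR (adjusted p = 0.849 and 0.944), and the 3067 counts of Crisp1 in WT library 2 outnumbered the 488 to 742 in each KO library. The 10 genes summed to 17310 CPM in WT library 2, inside the 16540 to 17370 CPM of the other WT libraries.

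The genes whose quantile-normalized log2 values followed the mean of the 10 most closely over the 8 libraries, predicted genes left out, were Ccdc110, Stx8, Donson, Bcl2l14 and Spaca3, with Pearson r from 0.992 to 0.997. These points share their libraries and the difference between genotypes, and r within genotypes was 0.977 to 0.996. That value is from the same libraries in which the 5 genes were picked. It also reflects in large part a split of the KO group. The mean of the 10 was at 10.42 and 10.40 in KO libraries 5 and 6 and at 10.22 and 10.26 in 7 and 8, with 10.47 to 10.55 in WT. Among the 10 themselves, r with their mean, in which each gene itself counts, ran from 0.36 for Odf2 to 0.98 for Prm2. Within genotypes it ran from 0.04 for Smcp, with 0.14 for Odf1 and 0.24 for Tnp2, to 0.97 for Prm2.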

How the data were processed

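RNA was prepared from frozen tissue with a stranded total RNA kit after depletion of ribosomal RNA. The authors deposited expected counts per gene, obtained by aligning reads to mm10 with STAR and assigning them to GENCODE M21 genes with RSEM (versions and strand setting are not given in the sources used here). The values are not normalized, and 12.3% to 16.6% of nonzero values are not whole. All 55450 identifiers matched the annotation, and 0 columns were left unmatched.

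Genes with at least 1 CPM in at least 4 of the 8 libraries of a tissue were quantile normalized and compared between KO and WT with voom and limma 3.58.1 in R 4.3.3, with Benjamini-Hochberg adjustment and a threshold of 0.05. The study's methods give the normalization, limma-voom and the limit of 1 CPM. The number of libraries, the fit per tissue and the method of adjustment were chosen here. Differences of the effect between tissues used TMM factors from edgeR 4.0.16 over all 24 libraries. DESeq2 1.42.0 and edgeR's quasi-likelihood test used rounded counts. P-values measure the spread between libraries. Intervals of counts cover counting error only.

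The 10 genes, the lists and the tests were chosen with earlier results of these data known. Named genes are the 10, Thumpd1, the 3 most abundant genes of each list in WT testes, and the 5 genes most like the mean of the 10; genes called in a list are named beside its count after their values were seen, as are genes that overlap a member. Lists covered histone exchange, spermatid transcription, storage and translation of messages, fibrous sheath, dense fibers, mitochondrial sheath, glycolysis, polyamines, neighbours of the protamine genes, and markers of round spermatids, spermatocytes, spermatogonia, Sertoli, Leydig, peritubular, macrophage and epididymal cells. Promoters came from RefSeq, and motifs were searched in 32851 of them. Alternatives were other scalings, no filter, sample weights and leaving out each library.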

Additional observations from a re-analysis of the deposited data

Results flagged for a closer look

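Of 36 groups of 4 libraries examined, 2 had a library whose gap to the nearest other was large for the group's range by Dixon's criterion, which chance alone gives in about 1 of 20 groups. Both concern KO library 8 in testes, and both are ratios within a library. The log2 ratio of Odf1 to Odf2 was -1.69 in this library and -1.79 to -1.77 in the other KO libraries, still below the WT libraries. The log2 ratio of Gapdhs to Ldhc was -0.33 in it and -0.73 to -0.68 in the other KO libraries, with -0.67 to -0.47 in WT. Without KO library 8 the log2 difference between KO and WT was -0.23 for Odf1 to Odf2 and -0.15 for Gapdhs to Ldhc, with an adjusted exact permutation p of 0.171 for each.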

How the results depend on the processing

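All 10 genes were below 0 in testes with quantile normalization, TMM factors, edgeR, DESeq2, library totals and no filter. Exceptions were Tnp1, at 0.069 with sample quality weights, and Odf2, which ran from -0.039 to 0.030 with single libraries left out and was positive without WT library 4 (0.030). The number of members called lower was 5 with quantile normalization, 8 with TMM factors, 8 with edgeR and 8 with DESeq2. It was 2 to 5 when single libraries were left out, and 6 to 9 when they were left out with TMM factors (2003 and 1973 genes called without WT libraries 3 and 4, and 1973 to 5376 over the 8 fits). Over the same fits with quantile normalization, 1741 to 4931 genes were called in testes and 970 to 2496 were lower (1122 to 2611 with TMM factors, 1125 without WT library 3). Sample quality weights gave 6107 calls in testes against 3957.

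In cerebellum 1045 genes were called, 1757 with weights, 681 with no filter and 398 to 2321 with single libraries left out. In liver 757 were called, 1408 with DESeq2, 447 with library totals, with or without the members, 1705 with weights and 292 to 798 with single libraries left out. The difference of the KO effect between tissues was called for 1293 to 2156 genes against cerebellum and 1272 to 2459 against liver with single libraries left out. Odf2 in cerebellum changed sign but stayed near 0 with TMM factors (-0.0025), edgeR (-0.0037) and DESeq2 (-0.0035). The effect on Odf2 in testes minus that in liver ran from -0.141 to 0.049 with single libraries left out, and was positive without WT liver library 2 (0.014), KO liver library 7 (0.034) or 8 (0.049), and KO testes library 7 (0.018). The causes were not tested.

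Libraries of different tissues share replicate numbers. Deviations from the group means of same-numbered libraries correlated at -0.09 to 0.23 between testes and cerebellum, at -0.08 to 0.12 between testes and liver, and at -0.19 to 0.17 between cerebellum and liver. Not every pair was above 0.1, and the samples were not treated as paired. Whether libraries with the same number come from the same animal is not in the labels. Correlations between tissues cannot settle it. With replicate number as a block the effect on Odf2 was -0.21 against cerebellum (limma adjusted p = 0.14) and -0.06 against liver (limma adjusted p = 0.817), and 2122 and 2320 genes were called against 1904 and 1878 without the block. With 4 libraries a group, exact tests of ratios cannot give a p under 0.0286.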
